A study of Mus musculus with 16 samples.

Results

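Medullary thymic epithelial cells (mTEC) were compared with thymic macrophages on 4 of the 16 oligonucleotide arrays of a series on sorted cells of the mouse thymus, 2 arrays for each cell type. Both groups came from wild-type mice (WT-mTEC and WT-tMPh in the labels). They were sorted by flow cytometry, and total RNA was hybridised. The arrays of the comparison were taken from the sample titles and descriptions, and all 12422 probe sets that were not controls entered it. The labels used here give no age, strain, number of animals per sort or surface markers of the sort. They do not state whether different animals gave the 2 samples of each cell type. The p-values rest on the spread between the 2 samples of a group, pooled over all 8 groups of the series. This spread may therefore be technical. Wild-type thymic dendritic cells (WT-tDC) and wild-type cortical thymic epithelial cells (WT-cTEC) are the closest relatives of each cell type in the series. They served to set members beside a second comparison. The remaining 8 arrays came from mTEC sorted by CD80 in wild-type and Aire-knockout mice and were not compared here. All 16 arrays entered the estimate of the spread, the added constant, the filter on dim probe sets and the choice of the brightest probe set.

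mTEC line the centre of the thymus and present to developing T cells many proteins that are otherwise made in one peripheral tissue, such as insulin or casein. The transcriptional regulators Aire and Fezf2 act in this expression. Thymic macrophages take up and digest the many thymocytes that die during selection. As macrophages in general they depend on the receptor for colony-stimulating factor 1 (Csf1r), on transcription factors such as PU.1 (Spi1), on Fc and complement receptors and on lysosomal hydrolases. Both cell types can present antigen on MHC class II.

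Each value is a deposited signal on a linear intensity scale with a 2%-trimmed mean of 100.1 on every array. Signals are given for array 1 and then array 2, and where pairs are set against each other, mTEC stand first. A difference is the mean log2(signal + 4.8) of mTEC minus that of macrophages, and the value after ± is the fit's standard error, so a negative value is higher in macrophages. This scale understates the change of dim genes. A gene was called higher or lower where its 2-sided limma test had a Benjamini-Hochberg adjusted p under 0.05 over 9319 probe sets. Where a gene had several probe sets, the brightest was used. The number of arrays limits the precision.

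The macrophage arrays differed from each other more than the mTEC arrays did. The median absolute log2 difference between replicates was 0.48 for macrophages and 0.37 for mTEC, and Pearson's r over all probe sets was 0.925 and 0.957. Array 1 of each group also had a lower ceiling. The highest signal was 2775 and 2804 on the number-1 arrays of mTEC and macrophages, against 5630.0 and 5005 on the number-2 arrays. Macrophage array 1 carried more signal of genes typical of other thymic cells. The summed signal of 25 thymocyte genes was 11288 on it and 3983 on macrophage array 2, against 849 and 909 on the mTEC arrays. The summed signal of 43 keratin and epithelial adhesion genes was 5202 on macrophage array 1 and 1820 on array 2, against 19928.0 and 16951 on the mTEC arrays. The macrophage surface genes went the other way, with 10076 on array 1 and 20714 on array 2. Results that rest on macrophage array 1 are given below with and without it. The part of these other cells in each result was not tested.

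**Figure D1:**
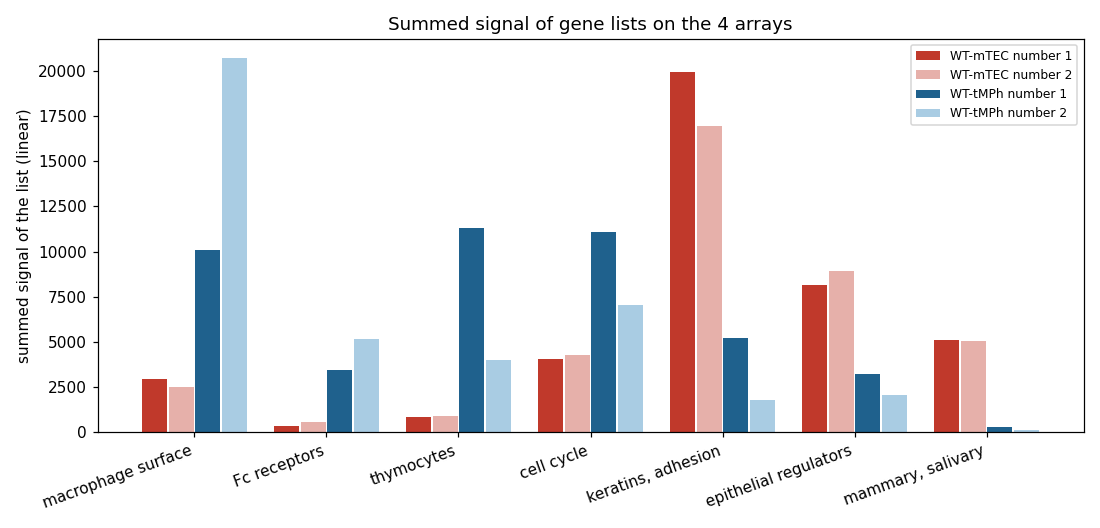
Summed deposited signal (linear axis from 0) of the tested genes of 7 gene lists, with 1 bar for each of the 4 arrays, red shades for mTEC and blue shades for macrophages, the darker for number 1. The thymocyte sum lies at 11288 and 3983 on the macrophage arrays and at 849 and 909 on the mTEC arrays, and the macrophage surface sum at 10076 and 20714 against 2975 and 2499.

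Between mTEC and macrophages 2048 of 9319 probe sets were called (22.0%). Of these, 1361 were higher in mTEC (14.6%) and 687 higher in macrophages (7.37%). On the brightest probe set of each of 6922 genes, 1077 genes were higher in mTEC (15.6%) and 545 higher in macrophages (7.87%). The median difference over all genes was 0.01. The lists of genes below are described by counts of their tested members beside these shares. A member dim in 1 of the cell types was tested because other arrays were brighter, so a count over tested members describes the list and is no test of it. The arrays of the 2 groups did not overlap for 29.1% of all genes with mTEC higher and for 25.3% with macrophages higher. Most genes named below were picked for a large called difference. That their groups do not overlap is close to fixed by this choice and is given only as a description. All 2048 called probe sets had the same sign between the number-1 arrays and between the number-2 arrays. A call rests on the mean of these same 2 differences, so a shared sign is close to fixed by the call. The median size of a called difference was 2.07 in all, 1.97 among the number-1 arrays and 2.19 among the number-2 arrays. Of the probe sets called higher in mTEC, 670 were below 17.3, the level used as the filter on dim probe sets, on both macrophage arrays. Of those higher in macrophages, 121 were below it on both mTEC arrays. The count higher in macrophages moved with the fit. It was 1075 with the array number as a block, 383 with only these 4 arrays in the fit, 402 without mTEC array 1 and 447 without mTEC array 2. Fewer cells of a type in a sort and less RNA per cell cannot be told apart in such bulk samples.

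**Figure D2:**
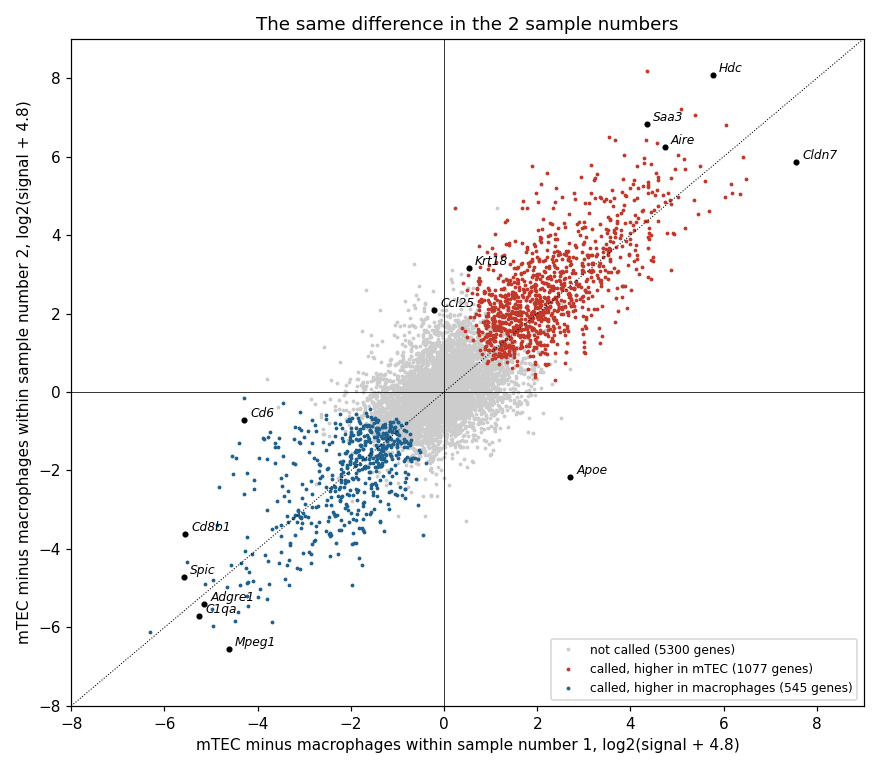
Difference in log2(signal + 4.8) between mTEC and macrophages on the number-1 arrays (horizontal) and on the number-2 arrays (vertical), with 1 point per gene, red where called higher in mTEC, blue where called higher in macrophages, grey where not called and black where labelled. The 1622 called genes all lie on the same side of 0 in both, which the call itself nearly fixes. Over all 2048 called probe sets the median size is 1.97 and 2.19.

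In the comparisons set beside this one, 440 genes were higher in macrophages than in dendritic cells (6.36%) and 280 lower (4.05%). Between mTEC and cTEC 819 genes were higher in mTEC (11.8%) and 318 higher in cTEC (4.59%). Both share arrays with the comparison of mTEC and macrophages, so their values stand side by side with it and are not separate support. On probe sets, the 338 higher in dendritic cells became 213 without dendritic cell array 1, and the 396 higher in cTEC became 187 and 200 without cTEC arrays 1 and 2, and 195 and 166 without mTEC arrays 1 and 2. The median difference of all genes was 0.09 for macrophages minus dendritic cells and -0.03 for mTEC minus cTEC.

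The genes that stood farthest apart were Hdc in mTEC and C1qb in macrophages. Hdc, histidine decarboxylase, which makes histamine, gave 1831 and 2180.2 on the mTEC arrays and 29 and 3.2 on the macrophage arrays. Both mTEC arrays lay far above both macrophage arrays, with a difference of 6.93 ± 0.64, adjusted p = 3.35e-06. It was also higher in mTEC than in cTEC (4.86 ± 0.64, adjusted p = 0.000112). C1qa, a chain of the first complement component, gave 51.1 and 45.8 on the mTEC arrays and 2144 and 2666 on the macrophage arrays. The 2 groups did not overlap, with a difference of -5.49 ± 0.36, adjusted p = 5.32e-07. With a constant of 1 in place of 4.8 the largest difference among named genes was that of Cldn7, at 8.02 with Hdc at 7.48. It was also that of Cldn7 without macrophage array 2, at 6.76 with Hdc at 5.89. Cldn7 led without mTEC array 2 too, at 7.5 with Hdc at 6.8. On the macrophage side Mpeg1 led without mTEC array 1, at -5.79 with C1qb at -5.69. Of the 12 genes with the largest difference in each direction, those higher in mTEC ranged from 5.62 to 6.93 and those higher in macrophages from -4.88 to -6.21. Beyond a difference of 4 there were 107 genes higher in mTEC and 36 higher in macrophages.

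The genes with the largest difference after Hdc included genes of epithelia and of secretory or contractile tissues. Cldn7, a tight junction claudin, gave 1143 and 378 in mTEC and 1.3 and 1.8 in macrophages (6.71 ± 0.45, adjusted p = 5.32e-07). Reg3g, an antibacterial lectin of the gut, gave 1577 and 3155 against 72.3 and 6.1 (6.27 ± 0.69, adjusted p = 1.61e-05). Csn2, the milk protein beta-casein, gave 1791 and 1997 against 38.4 and 10.1 (6.22 ± 0.55, adjusted p = 2.72e-06). Krt20, a keratin of intestinal epithelium, gave 1334 and 813 against 10.9 and 8.0 (6.21 ± 0.35, adjusted p = 2.84e-07). On none of these did the arrays of the 2 groups overlap. The others were the carboxylesterase Ces1d (6.42), the small GTPase Rasd1 (6.15), the fatty acid binding protein Fabp9 of the testis (5.95), the trefoil factor Tff3 (5.73), mesothelin, Msln (5.69), the vesicle protein Cadps (5.63) and the fast muscle myosin Myh4 (5.62). By their suffix, the probe sets of Cldn7, Ces1d, Fabp9 and Cadps can also match related sequences. Such probe sets are said to carry shared probes, though this is not repeated for every gene below. It holds for those of Lyl1, Laptm5, H2-K1 and Cd6 too. The probe sets used for Lcn2 and Sprr1b have another suffix, _r_at, which does not mark shared probes.

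The 12 highest in macrophages included genes of phagocytes and of blood cells in general. C1qb gave 23.5 and 53.3 in mTEC and 2243 and 4022 in macrophages (-6.21 ± 0.75, adjusted p = 3.4e-05), while its dimmer second probe set did not pass the test (-0.89, adjusted p = 0.134). Mpeg1, a pore-forming protein of phagocytes, gave 52.8 and 38.5 against 1407 and 4033 (-5.58 ± 0.45, adjusted p = 1.67e-06). Adgre1, the antigen F4/80 of mouse macrophages, gave 9.6 and 23.5 against 507 and 1199 (-5.28 ± 0.60, adjusted p = 2.05e-05). Tyrobp, the signalling adaptor DAP12, gave 44.1 and 33.1 against 1083 and 2159 (-5.16 ± 0.55, adjusted p = 1.17e-05). Spic, a transcription factor of macrophages that recycle iron, gave 12.1 and 15.4 against 802 and 526 (-5.15 ± 0.44, adjusted p = 2.29e-06). Both macrophage arrays lay above both mTEC arrays on all of these. The others were the tetraspanin Tspan4 (-5.47), the ectonucleotidase Entpd1 (-5.25), the integrin chain Itgb2 (-5.02), Cd68 (-5.01, on a probe set with shared probes), Il18 (-4.92) and the adaptor Lcp2 (-4.88).

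**Figure D3:**
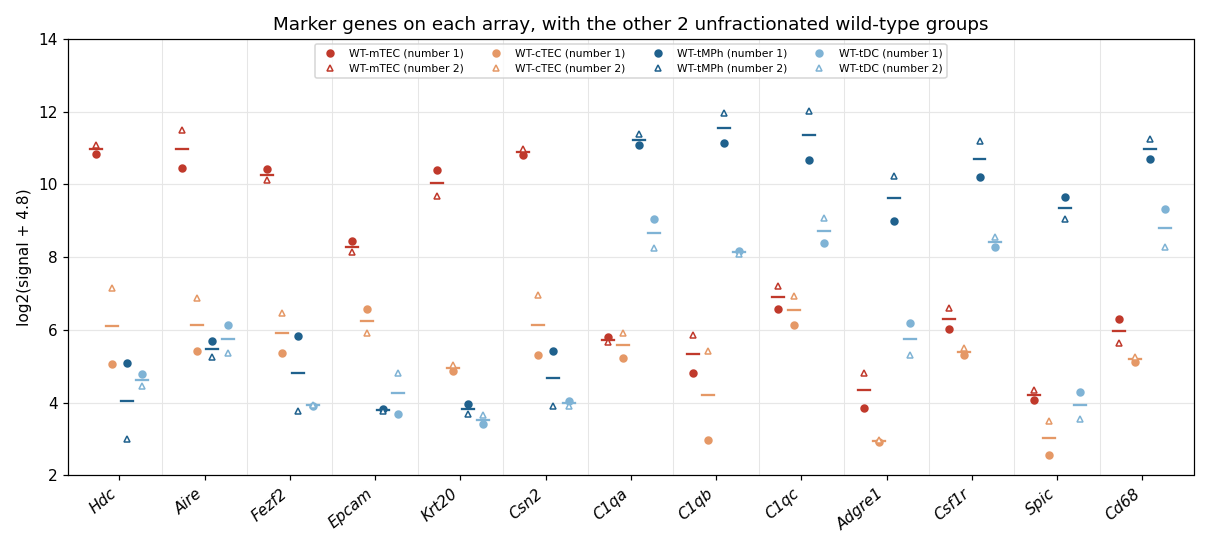
log2(signal + 4.8) of marker genes on the arrays of mTEC, cTEC, macrophages and dendritic cells, with filled circles for number 1, open triangles for number 2 and short lines for the mean of both. Hdc lies where the signals are 1831 and 2180.2 in mTEC against 29 and 3.2 in macrophages, and C1qa where they are 51.1 and 45.8 against 2144 and 2666.

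Of the macrophage surface and identity genes, 18 of the 21 on the array passed the filter on dim values. Of these 18, 13 were higher in macrophages, against 7.87% of all genes, and 1 was higher in mTEC. Their median difference was -3.32. Csf1r, which macrophages need for survival, gave 59.7 and 91.9 in mTEC and 1163 and 2325 in macrophages (-4.38 ± 0.38, adjusted p = 2.56e-06). Its second, dimmer probe set did not pass (-0.16, adjusted p = 0.859). Cd5l, a secreted scavenger protein of tissue macrophages, gave 26.7 and 14 against 309 and 566 (-4.12 ± 0.46, adjusted p = 1.73e-05). Mertk, a receptor kinase by which phagocytes take up dying cells, gave 8.2 and 2.2 against 135 and 185 (-4.09 ± 0.49, adjusted p = 3.16e-05). Slc11a1, a metal transporter of phagosomes, gave 42.8 and 41.9 against 549 and 962 (-3.96 ± 0.34, adjusted p = 2.22e-06). The groups did not overlap on any of these. The mannose receptor Mrc1 gave 33.8 and 76 against 209 and 989 (-3.04 ± 0.72, adjusted p = 0.00647), and its call was lost without mTEC array 1 (-2.51, adjusted p = 0.0772) and without macrophage array 2 (-1.93, adjusted p = 0.0895).

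Several well-known macrophage genes gave smaller differences or could not be tested. Itgam, Siglec1 and Cd36 were too dim to be tested. Cd14 did not pass, with differences from -0.96 to -0.55 when 1 array was left out. The scavenger receptor Stab1 was higher in macrophages (-2.55), as was the lysozyme Lyz2 (-1.43 ± 0.45, adjusted p = 0.0347), whose mTEC signals were 485 and 532. The Lyz2 call was lost without any 1 of the 4 arrays, with differences from -1.52 to -1.34 and adjusted p from 0.0758 to 0.146. The haem oxygenase Hmox1 gave 305 and 393 in mTEC and 960.4 and 1434 in macrophages, and the receptor kinase Axl 13.2 and 14.1 against 65.7 and 125. Neither passed the test (adjusted p of 0.0526 and 0.0524), although their arrays did not overlap. On 16 of the 18 both macrophage arrays lay above both mTEC arrays, which 25.3% of all genes did. Apoe, an apolipoprotein that macrophages secrete, gave 1307 and 687 in mTEC and 196 and 3113 in macrophages (0.27 ± 0.84, adjusted p = 0.881). Its macrophage arrays lay on both sides of mTEC, and without macrophage array 1 it was higher in macrophages (-1.71, adjusted p = 0.0175) and without array 2 higher in mTEC (2.25, adjusted p = 0.00414). Marco, a scavenger receptor of some macrophage types, was the member higher in mTEC, with 20.3 and 26.9 against 2.0 and 2.9 (1.96 ± 0.41, adjusted p = 0.00281).

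Against dendritic cells, 11 of the same 18 genes were higher in macrophages, against 6.36% of all genes, with a median of 2.22 (macrophages minus dendritic cells). The other 7 did not pass. Adgre1 gave 68 and 35 in dendritic cells and 507 and 1199 in macrophages (3.87 ± 0.60, adjusted p = 0.000737). Cd5l gave 11 and 12 and 309 and 566 (4.70 ± 0.46, adjusted p = 1.71e-05), and Mrc1 10.1 and 26.9 and 209 and 989 (4.41 ± 0.72, adjusted p = 0.00112). These 3 were higher in macrophages in both comparisons. Mpeg1 gave 2334 and 3772 in dendritic cells, within the range of macrophages (-0.32 ± 0.45, adjusted p = 0.794). Tspan4 gave 34.2 and 21.9 in dendritic cells (4.97 ± 0.46, adjusted p = 1.32e-05) and Entpd1 176 and 184 (1.38 ± 0.47, adjusted p = 0.0977).

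Among 17 macrophage transcription factors that were tested, 4 were higher in macrophages, against 7.87% of all genes, and the other 13 did not pass, with a median of -0.51. Nr1h3, the oxysterol receptor LXR alpha, gave 46 and 46.9 in mTEC and 458 and 639.5 in macrophages (-3.41 ± 0.32, adjusted p = 4.13e-06). Pparg, a lipid-sensing nuclear receptor, gave 1.1 and 8.6 against 47.3 and 112 (-3.13 ± 0.53, adjusted p = 0.000544). Lyl1, a blood cell factor, gave 23.6 and 23.1 against 176 and 122 (-2.43 ± 0.49, adjusted p = 0.00221). Spic was the fourth. Both macrophage arrays lay above both mTEC arrays on all 4. Spi1, the master factor PU.1, gave 4.2 and 39.9 against 44.9 and 93.1 (-1.80 ± 0.70, adjusted p = 0.086) and did not pass, but was higher in macrophages without mTEC array 2 (-2.95, adjusted p = 0.0109). Irf8, a myeloid factor, gave 440.4 and 799 against 1056 and 1243 (-0.94 ± 0.39, adjusted p = 0.11). The other factors of this list lay between -0.91 for Ikzf1 and 0.81 for Klf4. Spic, Nr1h3 and Pparg were higher in macrophages than in dendritic cells as well, by 5.42, 3.35 and 3.06, and Spic gave 14.9 and 7.0 there.

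RefSeq promoters of the mouse build GRCm38.p6, from 250 bases before to 50 after the annotated start, were searched on both strands for the letters of 3 motifs. These were GAGGAAGT, an Ets-type site that PU.1 binds, TTGCGCAA, the palindrome of C/EBP factors, and AACCGGTT, the palindrome of the epithelial grainyhead family. None of the 3 contains another. Of 447 genes higher in macrophages that had a promoter in the table, 20 held the PU.1 letters, in 21 of 604 promoters (3.48%). The share was 2.83% of the 1061 promoters of genes higher in mTEC, 2.81% of those of all tested genes and 3.2% of all 32851 promoters. The C/EBP letters were in 3 and 4 of the promoters of genes higher in macrophages and in mTEC (0.497% and 0.377%), against 0.35% of those of all tested genes and 0.183% of all promoters. The grainyhead letters were in 0 and 1 of them (0.0% and 0.0943%), against 0.182% of those of all tested genes and 0.146% of all promoters. These shares rest on few promoters and were not tested. The promoters of Hdc, Aire, C1qb, Cd68, Mpeg1 and Spic held none of the 3, which says only that these letters are not in this window.

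Of the genes with a match that are described here, 4 were higher in macrophages and 3 higher in mTEC. Of these 3, Ly6g has 2 annotated starts and holds the PU.1 letters at -31 from the first and at -99 and 26 from the second. The other 6 are printed below to show where the letters lie. They are written 5′ to 3′ on the strand of the gene, with the match in capitals, which reads ACTTCCTC where the PU.1 letters are on the other strand. C1qc is a chain of complement C1q (chr4:136892865-136893164, minus strand). Cd53 and Cd37 are tetraspanins of leukocytes (chr3:106790100-106790399 and chr7:45238790-45239089, both minus strand). Inpp5d is the inositol phosphatase SHIP1 (chr1:87620062-87620361, plus strand), and its second probe set did not pass (-0.09, adjusted p = 0.956). S100a8, a calgranulin, was higher in mTEC and holds the PU.1 letters too (chr3:90668821-90669120, plus strand). Ptgs2, the prostaglandin synthase COX-2, was higher in mTEC and holds the C/EBP letters (chr1:150099781-150100080, plus strand). Counted from 0 at the annotated start, the matches begin at -195 in C1qc, 6 in Cd53, -25 in Cd37, -20 in Inpp5d, -172 in S100a8 and -69 in Ptgs2. These genes are only a part of the called list members with a match. Others with the PU.1 letters included Satb1, Pirb, Ctsc, Vav1 and Cenpa, which were higher in macrophages. Ifi47, Cd72, Sprr3, Mpo, Flg and Ldhc, which were higher in mTEC, held them too. A match is a description and no evidence of binding.
C1qc: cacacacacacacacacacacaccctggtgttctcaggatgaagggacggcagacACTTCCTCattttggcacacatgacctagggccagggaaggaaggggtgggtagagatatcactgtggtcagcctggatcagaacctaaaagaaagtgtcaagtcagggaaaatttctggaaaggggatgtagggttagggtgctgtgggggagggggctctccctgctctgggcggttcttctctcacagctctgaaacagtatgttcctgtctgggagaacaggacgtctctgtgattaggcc
Cd53: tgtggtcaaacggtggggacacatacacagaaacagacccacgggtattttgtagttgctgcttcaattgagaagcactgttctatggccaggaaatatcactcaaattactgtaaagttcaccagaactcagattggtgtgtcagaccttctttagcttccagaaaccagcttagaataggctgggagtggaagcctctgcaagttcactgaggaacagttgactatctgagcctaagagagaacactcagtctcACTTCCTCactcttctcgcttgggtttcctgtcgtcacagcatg
Cd37: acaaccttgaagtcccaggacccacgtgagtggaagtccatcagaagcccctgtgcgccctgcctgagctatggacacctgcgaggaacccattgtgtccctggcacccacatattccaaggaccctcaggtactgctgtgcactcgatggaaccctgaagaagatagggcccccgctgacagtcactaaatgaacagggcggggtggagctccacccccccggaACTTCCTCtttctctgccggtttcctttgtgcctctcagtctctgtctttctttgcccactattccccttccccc
Inpp5d: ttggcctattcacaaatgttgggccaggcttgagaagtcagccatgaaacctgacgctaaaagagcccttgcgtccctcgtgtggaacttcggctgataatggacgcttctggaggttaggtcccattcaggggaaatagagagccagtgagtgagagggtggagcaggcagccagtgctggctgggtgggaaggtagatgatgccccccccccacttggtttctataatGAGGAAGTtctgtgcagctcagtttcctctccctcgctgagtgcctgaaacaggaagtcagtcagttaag
S100a8: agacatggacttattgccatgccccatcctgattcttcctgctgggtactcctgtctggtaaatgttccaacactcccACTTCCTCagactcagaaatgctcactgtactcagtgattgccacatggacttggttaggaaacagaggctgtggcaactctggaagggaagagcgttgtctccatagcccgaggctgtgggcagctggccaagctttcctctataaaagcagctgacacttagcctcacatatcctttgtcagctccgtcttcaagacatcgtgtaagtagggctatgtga
Ptgs2: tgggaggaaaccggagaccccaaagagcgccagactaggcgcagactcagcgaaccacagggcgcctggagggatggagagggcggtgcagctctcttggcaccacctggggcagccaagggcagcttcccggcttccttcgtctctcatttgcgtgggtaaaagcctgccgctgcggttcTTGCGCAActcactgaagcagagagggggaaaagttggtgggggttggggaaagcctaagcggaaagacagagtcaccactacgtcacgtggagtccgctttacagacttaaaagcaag

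Complement genes were called in both directions. Of 16 tested, 6 were higher in macrophages, against 7.87% of all genes, with a median of 0.10. The 3 higher in mTEC were near the 15.6% of all genes, and the other 7 did not pass. The 3 chains of C1q, which starts the classical pathway, were all higher in macrophages. C1qc gave 91.1 and 144 in mTEC and 1636 and 4176 in macrophages (-4.45 ± 0.44, adjusted p = 5.73e-06). Cfp, properdin, which stabilises the alternative pathway, gave 74.5 and 32.5 against 1467 and 1632 (-4.83 ± 0.49, adjusted p = 6.91e-06). C2, a protease of the classical pathway, gave 88 and 116 against 253 and 407 (-1.62 ± 0.34, adjusted p = 0.00284). The macrophage arrays lay above the mTEC arrays on all of these. Among regulators, Cfi and Serping1 were higher in mTEC, while Cd59a (-0.42), Cd55 (0.25) and Cr1l (0.29) did not pass. Cfi, factor I, gave 85.9 and 42.8 in mTEC and 0.4 and 0.6 in macrophages (3.63 ± 0.42, adjusted p = 2.6e-05). Serping1, the C1 inhibitor, gave 163 and 183 against 31.6 and 20.4 (2.55 ± 0.31, adjusted p = 3.67e-05). Cr2, complement receptor 2, passed narrowly (1.54, adjusted p = 0.0457), and lost its call without mTEC array 1 (1.80, adjusted p = 0.079), mTEC array 2 (1.27, adjusted p = 0.24) or macrophage array 2 (1.01, adjusted p = 0.299). The 3 C1q chains were higher in macrophages than in dendritic cells as well, by 2.57 for C1qa, 3.43 for C1qb and 2.63 for C1qc, and C1qa gave 525 and 301 there.

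Fc receptors and their ITAM partners let phagocytes sense antibody-coated material. Of 11 tested, 9 were higher in macrophages, against 7.87% of all genes, with a median of -3.11. Fcgr1, the high-affinity IgG receptor, gave 16.6 and 16.9 in mTEC and 289 and 425 in macrophages (-4.04 ± 0.35, adjusted p = 2.25e-06). Fcgr2b, the inhibitory IgG receptor, gave 5.4 and 5.8 against 68.4 and 150.0 (-3.36 ± 0.48, adjusted p = 0.000152). Fcer1g, the shared signalling chain, gave 1.7 and 8.0 against 50.1 and 112 (-3.13 ± 0.47, adjusted p = 0.000212). The kinase Syk, which acts downstream, gave 209.7 and 365 against 1001 and 1262 (-2.0 ± 0.37, adjusted p = 0.0012), and mTEC gave a signal too. The probe sets of Fcgr1, Fcgr2b and Fcer1g carry shared probes. Fcgr3 (-0.29) and Fcgrt (-1.25) did not pass. The count of 9 was the same without each of the 4 arrays. Fcgr1 and Clec4d, a C-type lectin, were higher than in dendritic cells (3.59 and 2.86), whereas Tyrobp gave 1615 and 901 there (0.34 ± 0.55, adjusted p = 0.822).

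Of 35 genes of leukocyte signalling and cytoskeleton, 18 were higher in macrophages and 1 in mTEC, against 7.87% and 15.6% of all genes. Their median was -1.77. Cd48, a surface ligand of blood cells, gave 13.2 and 19.7 in mTEC and 446 and 769.5 in macrophages (-4.81 ± 0.47, adjusted p = 5.37e-06). Hcls1, a cortactin-like protein of blood cells, gave 12 and 11.9 against 396 and 353 (-4.50 ± 0.54, adjusted p = 3.48e-05). Cd53 gave 9.4 and 18 against 187 and 678 (-4.33 ± 0.58, adjusted p = 8.6e-05). Ptprc, the pan-leukocyte phosphatase CD45, gave 16.4 and 51.8 against 366 and 985 (-4.13 ± 0.80, adjusted p = 0.00172). The 2 groups did not overlap on any of the 4. Thymocytes carry many of these genes too, and the thymocyte sum was 11288 and 3983 on the macrophage arrays. Coro1a, an actin-binding coronin, gave 151 and 131 against 1306 and 259.6 (-2.02 ± 0.64, adjusted p = 0.0362), and its call was lost without macrophage array 1 (-0.86, adjusted p = 0.374), mTEC array 1 (-2.11, adjusted p = 0.11) or mTEC array 2 (-1.92, adjusted p = 0.156). Without macrophage array 2 the difference was larger (-3.17, adjusted p = 0.00186). Ncf1, a subunit of the phagocyte oxidase, was the member higher in mTEC, with 37.1 and 40 against 2.1 and 11.5 (2.03 ± 0.45, adjusted p = 0.00422), and its call was lost without macrophage array 1 (1.41, adjusted p = 0.0545). Genes with strong signals in both cell types included Laptm5, a lysosomal membrane protein of blood cells, with 2014 and 2768 against 1802 and 3338 (-0.06 ± 0.34, adjusted p = 0.947), and Rac2, a small GTPase (1147 and 962 against 1447 and 1141).

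Of 33 lysosomal and clearance genes tested, 12 were higher in macrophages and 1 in mTEC, against 7.87% and 15.6% of all genes. Their median was -0.68. Lgmn, the protease legumain, gave 36.2 and 25.2 in mTEC and 762 and 1095 in macrophages (-4.71 ± 0.39, adjusted p = 1.87e-06). Acp5, tartrate-resistant acid phosphatase, gave 44.8 and 61.1 against 944 and 1462 (-4.37 ± 0.36, adjusted p = 1.77e-06). Man2b1, lysosomal mannosidase, gave 192 and 156 against 1584 and 2741 (-3.56 ± 0.37, adjusted p = 1.01e-05), while its second probe set did not pass (-1.18, adjusted p = 0.127). Lipa, the acid lipase, gave 2.2 and 1.8 against 57.1 and 49.2 (-3.09 ± 0.41, adjusted p = 8.59e-05). These hydrolases showed no overlap of the groups. Cathepsins took both directions. Ctsb gave 467 and 457 against 2700.0 and 3082 (-2.63 ± 0.34, adjusted p = 5.89e-05), with its other probe sets at -5.31, -4.13 and -1.66. Ctsk, known from bone resorption, was the gene higher in mTEC (109.8 and 86.4 against 19.7 and 20.3, 2.04 ± 0.37, adjusted p = 0.000955). Ctsd was called higher in macrophages too, with differences from -3.0 to -1.1 when 1 array was left out. Ctss and Ctsl, which cut the invariant chain, did not pass. Ctss gave 1812 and 1818 against 2380.4 and 3561 (-0.68 ± 0.40, adjusted p = 0.279). Ctsl gave 1617 and 798 against 1709 and 1115 (-0.28 ± 0.49, adjusted p = 0.78). Against dendritic cells, 14 of the 33 were higher in macrophages and 1 lower, against 6.36% and 4.05% of all genes. The median was 0.96. Bridging proteins for dying cells did not pass against mTEC, with Gas6 at 676 and 418 against 869.8 and 109.5 and Mfge8 at 637 and 599 against 641 and 184. Both were highest on macrophage array 1, and without it they were higher in mTEC (2.23, adjusted p = 0.000522 and 1.72, adjusted p = 0.00896).

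Pattern recognition and inflammatory genes divided, with a median of -0.06. Of 27 tested, 10 were higher in macrophages and 7 higher in mTEC, against 7.87% and 15.6% of all genes. The interleukin-1 family took both sides. Il18 gave 2.3 and 13.9 in mTEC and 319 and 371 in macrophages (-4.92 ± 0.53, adjusted p = 1.21e-05). Il1a gave 21.3 and 27.8 against 333 and 363 (-3.59 ± 0.38, adjusted p = 1.05e-05). Il1rn, the antagonist of the interleukin-1 receptor, gave 1309 and 1479 against 25.2 and 58.9 (5.0 ± 0.40, adjusted p = 1.5e-06). The groups stood apart on all 3, in opposite directions. Tnf, tumour necrosis factor, gave 324 and 231 in mTEC and 11 and 26.2 in macrophages (3.65 ± 0.41, adjusted p = 1.73e-05). Ptgs2 gave 152 and 381 against 7.7 and 7.7 (4.30 ± 0.65, adjusted p = 0.000254). Il12a, a subunit of interleukin-12, gave 116 and 121 against 1.3 and 1.4 (4.33 ± 0.46, adjusted p = 1.05e-05). All 3 of these were higher in mTEC, and Tnf and Il12a were also higher in mTEC than in cTEC (4.90 and 3.65). Receptors were called in both directions. Higher in macrophages were Tnfrsf1b, a receptor for tumour necrosis factor, at 76.8 and 111 against 372 and 727 (-2.44 ± 0.40, adjusted p = 0.000491) and the Toll-like receptor Tlr6 at 26 and 31.9 against 115 and 166 (-2.09 ± 0.36, adjusted p = 0.000732). Il1r2, a decoy receptor for interleukin-1, was higher in mTEC, with 474 and 401 against 126 and 30 (2.71 ± 0.70, adjusted p = 0.011) on a probe set with shared probes. Its call was lost without mTEC array 1 (2.59, adjusted p = 0.0701) or macrophage array 2 (1.76, adjusted p = 0.128), and its other probe set was higher in mTEC too (1.79, adjusted p = 0.0108). Il10 gave 40.9 and 42.8 against 43.6 and 40.5 (-0.01 ± 0.41, adjusted p = 0.996). Csf3r did not pass on its brightest probe set (-0.51) and was higher in macrophages on a dimmer one (-3.70, adjusted p = 1.7e-05).

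Of 32 chemokines and chemokine receptors, 15 were higher in mTEC and 4 higher in macrophages, against 15.6% and 7.87% of all genes, with a median of 1.13. Ccl5, which attracts T cells, gave 1564 and 1699 in mTEC and 61.5 and 42.7 in macrophages (4.86 ± 0.82, adjusted p = 0.00055). Ccl17 and Ccl22, ligands of the receptor CCR4 on thymocytes, gave 149 and 229 against 3.9 and 2.8 (4.54 ± 0.51, adjusted p = 1.74e-05) and 1019 and 1145 against 69.6 and 70.5 (3.86 ± 0.70, adjusted p = 0.00103). Ccl9, a myeloid chemokine of the mouse, gave 1131 and 637 against 32.7 and 34.1 (4.48 ± 0.33, adjusted p = 1.04e-06). Cxcl1 and Cxcl2, which attract neutrophils, gave 699 and 1920.2 against 95 and 58.8 (3.87 ± 0.57, adjusted p = 0.000188) and 845 and 881 against 82.5 and 72.6 (3.40 ± 0.53, adjusted p = 0.00032). All 6 showed no overlap. Those higher in macrophages were Ccl12 (-2.71), Ccl3 (-1.90), the receptor Ccr9 of thymocytes (-2.72) and Cxcr4 (-1.59), and the Cxcr4 call was lost without mTEC array 1 (-1.39, adjusted p = 0.0724) and without macrophage array 2 (-1.13, adjusted p = 0.101). Ccl25, which thymic epithelium makes to attract thymocyte progenitors, gave 1589 and 1141 in mTEC and 1834 and 263 in macrophages (0.95 ± 0.70, adjusted p = 0.421). Its signal on macrophage array 1 was above both mTEC arrays, and without that array it was higher in mTEC (2.33, adjusted p = 0.0105).

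Of the 32 chemokine genes, 7 were higher in macrophages than in dendritic cells and 7 lower, against 6.36% and 4.05% of all genes, with a median of -0.12. Ccl17, Ccl22, Ccl5 and Ccl9 were among the 7 higher in dendritic cells. Ccl17 gave 991 and 869.6 in dendritic cells against 3.9 and 2.8 in macrophages (-6.84 ± 0.51, adjusted p = 2.76e-06). Ccl22 gave 1094 and 3222 there (-4.65 ± 0.70, adjusted p = 0.000606) and Ccl5 2227 and 2312 (-5.34 ± 0.82, adjusted p = 0.000668). Ccl9 differed by -1.96 ± 0.33, adjusted p = 0.00146, while Cxcl1 (-0.49) and Cxcl2 (-0.41) did not pass. A negative value here is higher in dendritic cells than in macrophages. Of 23 dendritic cell genes tested, 9 were higher in mTEC than in macrophages and 4 lower, against 15.6% and 7.87% of all genes. Their median was 0.73. Irf4, a transcription factor of some dendritic cells and of B cells, gave 965 and 961 in mTEC and 53.4 and 19.5 in macrophages (4.68 ± 0.41, adjusted p = 2.67e-06). Spib, an Ets factor of plasmacytoid dendritic cells and of mTEC, gave 671 and 1115 against 28.5 and 8.3 (5.38 ± 0.54, adjusted p = 6.65e-06), while its second probe set did not pass (1.09, adjusted p = 0.115). Fscn1, the actin bundler fascin, gave 894 and 1254 against 189 and 112 (2.82 ± 0.45, adjusted p = 0.000334). Among markers of dendritic cells, Ccr7 was called higher in mTEC, with differences from 1.57 to 1.98 when 1 array was left out. The markers Flt3, Zbtb46 and Xcr1 did not pass. Flt3 gave 85 and 90.6 against 60.6 and 37.4 (0.82 ± 0.48, adjusted p = 0.273). Zbtb46, a transcription factor of the dendritic lineage, gave 17.3 and 36.7 against 3.2 and 17.9 (1.17 ± 0.58, adjusted p = 0.184). Xcr1 gave 23.7 and 26.4 against 31 and 25.9 (-0.15 ± 0.43, adjusted p = 0.866). Itgax, the integrin CD11c, was higher in macrophages, with 39.1 and 54.4 against 186 and 277 (-2.19 ± 0.36, adjusted p = 0.000428).

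Of 15 MHC class II and costimulation genes tested, 8 were higher in mTEC and 2 in macrophages, against 15.6% and 7.87% of all genes. Their median was 1.19. H2-Ab1, a class II beta chain, gave 2034 and 2632 in mTEC and 759 and 272 in macrophages (2.33 ± 0.39, adjusted p = 0.000489). H2-Oa and H2-Ob, the chains of the DO regulator of peptide loading, gave 907 and 1009 against 155 and 27.6 (3.74 ± 0.56, adjusted p = 0.0002) and 104 and 81.7 against 3.8 and 20.4 (2.72 ± 0.50, adjusted p = 0.00109). Cd40, a receptor for signals of T cells, gave 592 and 667 against 89.9 and 59.2 (3.02 ± 0.31, adjusted p = 7.43e-06). Both mTEC arrays lay above both macrophage arrays on these 4. H2-Eb1, another beta chain, gave 2002 and 4299 against 784 and 589 (2.10 ± 0.49, adjusted p = 0.00608), and its call was lost without mTEC array 2 (1.55, adjusted p = 0.0914). The costimulatory ligands went opposite ways. Cd86 gave 57.4 and 50.3 in mTEC and 306 and 785 in macrophages (-3.08 ± 0.48, adjusted p = 0.000292), on a probe set with shared probes. Cd80 gave 40.3 and 30.4 against 12.3 and 13 (1.19 ± 0.37, adjusted p = 0.0323), and its call was lost without any 1 of the 4 arrays (differences from 1.01 to 1.37 and adjusted p from 0.07 to 0.188). Cd83, a marker of mature dendritic cells, was higher in macrophages, with 288 and 201 against 1353 and 1009 (-2.26 ± 0.35, adjusted p = 0.000308), while its second probe set did not pass (-1.11, adjusted p = 0.245).

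Cd74, Ciita and H2-Aa of the class II pathway did not pass. Cd74, the invariant chain, gave 2023 and 4718 in mTEC and 1465 and 1301 in macrophages (1.16 ± 0.48, adjusted p = 0.111). It was higher in mTEC without mTEC array 1 (1.77, adjusted p = 0.0434). Ciita, the class II transactivator, gave 113 and 81 against 68.3 and 33.8 (0.92 ± 0.51, adjusted p = 0.245). H2-Aa gave 1122 and 5358 against 1745 and 1655 (0.53 ± 1.0, adjusted p = 0.795), with an overlap of the groups. The number of class II and costimulation genes higher in mTEC was 8 with all arrays, 5 without macrophage array 1 and 10 with the array number as a block. Against dendritic cells, 7 of the 15 were lower in macrophages, against 4.05% of all genes. The others did not pass, and the median was -1.70. H2-Ab1 was lower in macrophages by that comparison too, with 3056 and 3147 in dendritic cells (-2.76 ± 0.39, adjusted p = 0.000341), and Cd40 gave 853 and 874 (-3.48 ± 0.31, adjusted p = 9.3e-06).

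**Figure D4:**
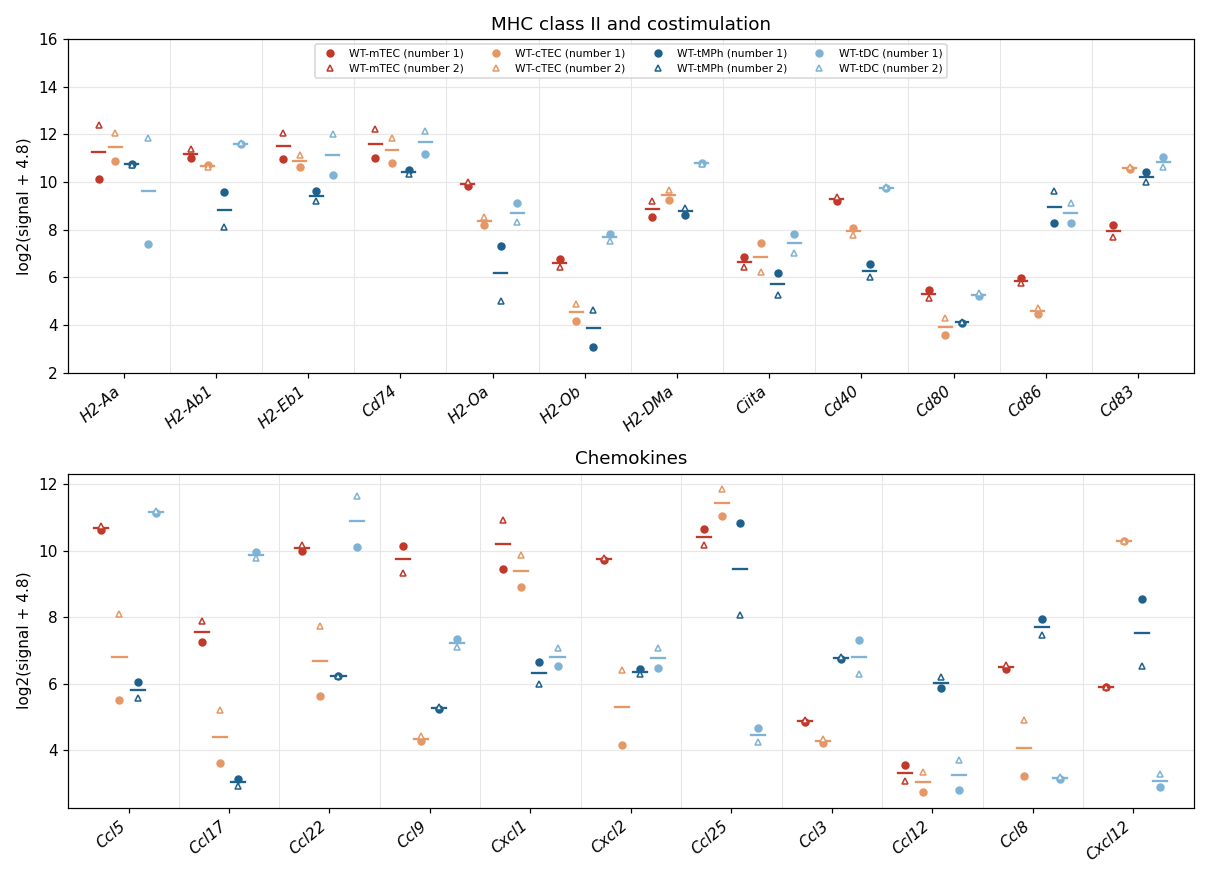
log2(signal + 4.8) of MHC class II and costimulation genes (top) and chemokines (bottom) on the arrays of mTEC, cTEC, macrophages and dendritic cells, with filled circles for number 1, open triangles for number 2 and short lines for the mean of both. H2-Ab1 lies where the signals are 2034 and 2632 in mTEC against 759 and 272 in macrophages, and Cd86 where they are 57.4 and 50.3 against 306 and 785.

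Of 27 MHC class I, proteasome and interferon genes tested, 7 were higher in mTEC, against 15.6% of all genes, and the other 20 did not pass, with a median of 0.55. Usp18, an interferon-induced protease that removes ISG15, gave 1214 and 1273 in mTEC and 150.1 and 88 in macrophages (3.38 ± 0.29, adjusted p = 2.25e-06). Ifit1, an interferon-induced RNA-binding protein, gave 275 and 434 against 26.3 and 46.5 (3.13 ± 0.52, adjusted p = 0.000489). Ifitm3, an antiviral membrane protein, gave 1098 and 1122 against 292 and 102 (2.65 ± 0.43, adjusted p = 0.000429). These 3 did not overlap. Class I genes themselves did not pass, with H2-K1 at 1977 and 4648 against 1731 and 5005 (0.04 ± 0.56, adjusted p = 0.975) and B2m at 1735 and 2241 against 823 and 1765 (0.71 ± 0.48, adjusted p = 0.359). Mx1, another interferon-induced gene, gave 114 and 87 against 80.2 and 75.8 (0.33 ± 0.37, adjusted p = 0.619). The count of 7 fell to 3 without mTEC array 1 and to 3 without macrophage array 2.

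Regulators of thymic epithelium were higher in mTEC for 12 of 22 tested, against 15.6% of all genes, with a median of 1.38. The other 10 did not pass. Aire gave 1386 and 2887 in mTEC and 47.3 and 33.3 in macrophages (5.49 ± 0.51, adjusted p = 3.46e-06). Fezf2 gave 1360.3 and 1106 against 52.5 and 8.8 (5.46 ± 0.61, adjusted p = 1.9e-05). Tnfrsf11b, the decoy receptor osteoprotegerin for the mTEC growth signal RANKL, gave 295 and 506 against 9.6 and 10.5 (4.72 ± 0.46, adjusted p = 4.83e-06). The mTEC arrays stood apart from the macrophage arrays on all 3, and Aire and Fezf2 were higher than in cTEC too (4.82 and 4.35). Tnfrsf11a, the receptor RANK, gave 12.5 and 13.7 against 16.9 and 11.6 (-0.08 ± 0.39, adjusted p = 0.93). Foxn1, the master factor of thymic epithelium, gave 18.7 and 36.9 against 10.3 and 13.5 (0.91 ± 0.36, adjusted p = 0.0917) and passed only without mTEC array 1 (1.33, adjusted p = 0.0484). Pax1 gave 191 and 162 against 361 and 91.8 (-0.06 ± 0.46, adjusted p = 0.959). Enpep, the cortical antigen Ly51, gave 55.4 and 65.5 against 171 and 25.9 (-0.18 ± 0.59, adjusted p = 0.889). Pax1 and Enpep were both highest on macrophage array 1, and Enpep was higher in macrophages without array 2 (-1.43, adjusted p = 0.0302). In cTEC Enpep gave 999 and 789.9. The count of 12 was 7 without mTEC array 1 and 7 without macrophage array 2.

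Keratins and epithelial adhesion genes were higher in mTEC for 32 of 43 tested, against 15.6% of all genes, with a median of 2.59. Of the 51 on the array, 8 were too dim to be tested, among them the medullary keratins Krt5 and Krt14. Of the 43, 12 were below the filter level on both macrophage arrays. The other 11 did not pass. Gjb2, a connexin of epithelial gap junctions, gave 1236 and 874 in mTEC and 20.9 and 16.2 in macrophages (5.49 ± 0.33, adjusted p = 2.84e-07). Muc1, a membrane mucin, gave 1476 and 1278 against 58.4 and 22.2 (5.06 ± 0.53, adjusted p = 1.04e-05). Epcam, the epithelial cell adhesion molecule, gave 343 and 277 against 9.5 and 8.8 (4.49 ± 0.48, adjusted p = 1.17e-05). Krt19 gave 270.4 and 162 against 11.5 and 0.8 (4.49 ± 0.45, adjusted p = 6.81e-06). Both mTEC arrays lay above both macrophage arrays on 34 of the 43, which 29.1% of all genes did. Macrophage array 1 carried keratin signal. Krt8, a keratin of simple epithelia, gave 2033 and 2308 against 1213 and 172 (2.23 ± 0.67, adjusted p = 0.0268), and its call was lost without mTEC array 1 (2.32, adjusted p = 0.092), mTEC array 2 (2.13, adjusted p = 0.126) or macrophage array 2 (0.83, adjusted p = 0.312). Without macrophage array 1 it was 3.62, adjusted p = 0.000197. Krt18, its partner, gave 1063 and 449 against 733 and 46.4 (1.84 ± 0.81, adjusted p = 0.135), and without macrophage array 1 it was higher in mTEC (3.76, adjusted p = 4.61e-05). Cdh1, E-cadherin, gave 58.8 and 66.6 against 81.4 and 53.2 (-0.07 ± 0.34, adjusted p = 0.929), with an overlap of the groups. Its value in cTEC was 59.6 and 72.6.

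Growth factor, Notch, Wnt and BMP genes were higher in mTEC for 15 of 39 tested, against 15.6% of all genes. Their median was 0.87, and the other 24 did not pass. Igf2, insulin-like growth factor 2, gave 269 and 394 in mTEC and 24 and 31.1 in macrophages (3.36 ± 0.43, adjusted p = 6.03e-05), on a probe set with shared probes. Igfbp3, a binding protein of such factors, gave 56.1 and 96 against 2.9 and 7.0 (3.04 ± 0.44, adjusted p = 0.000158). Efnb2, an ephrin ligand, gave 101 and 185 against 16.1 and 14.3 (2.83 ± 0.43, adjusted p = 0.000264). Erbb3, a receptor of the EGF family, gave 187 and 230.4 against 38.3 and 33.9 (2.38 ± 0.30, adjusted p = 5.04e-05). The groups did not overlap on any of these 4. Notch1 gave 553 and 639 against 404 and 545 (0.34 ± 0.30, adjusted p = 0.511). The count of 15 was 9 without mTEC array 2 and 19 without macrophage array 1.

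Genes typical of other tissues were called higher in mTEC in every list drawn up for them. Many were dim in macrophages and were tested because other arrays were brighter, so these counts are descriptions and support nothing by themselves. Over all genes, 15.6% were higher in mTEC and 7.87% higher in macrophages. Of 30 mammary, salivary and lacrimal secretions on the array 22 were tested. Of these, 14 were below the filter level on both macrophage arrays, and 20 were higher in mTEC (median 2.93). Of 46 pancreas and gut genes 39 were tested, 22 were below that level in macrophages, 30 were higher in mTEC (median 2.23) and 1 in macrophages. Of 30 skin genes 27 were tested, 9 were below it and 19 were higher (median 2.16). Of 48 genes of nervous system, eye and hormones 34 were tested, 13 were below it and 20 were higher (median 1.61). Of 54 muscle and testis genes 39 were tested, 24 were below it and 22 were higher (median 1.63). Of 37 liver and plasma genes 32 were tested, 21 were below it, 19 were higher (median 1.59) and 1 was higher in macrophages. With a stricter filter of 50 the calls higher in mTEC were 15, 22, 18, 20, 14 and 14 in the same order. The milk protein Lalba and the glucagon gene Gcg were among the members that were too dim to be tested.

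**Figure D5:**
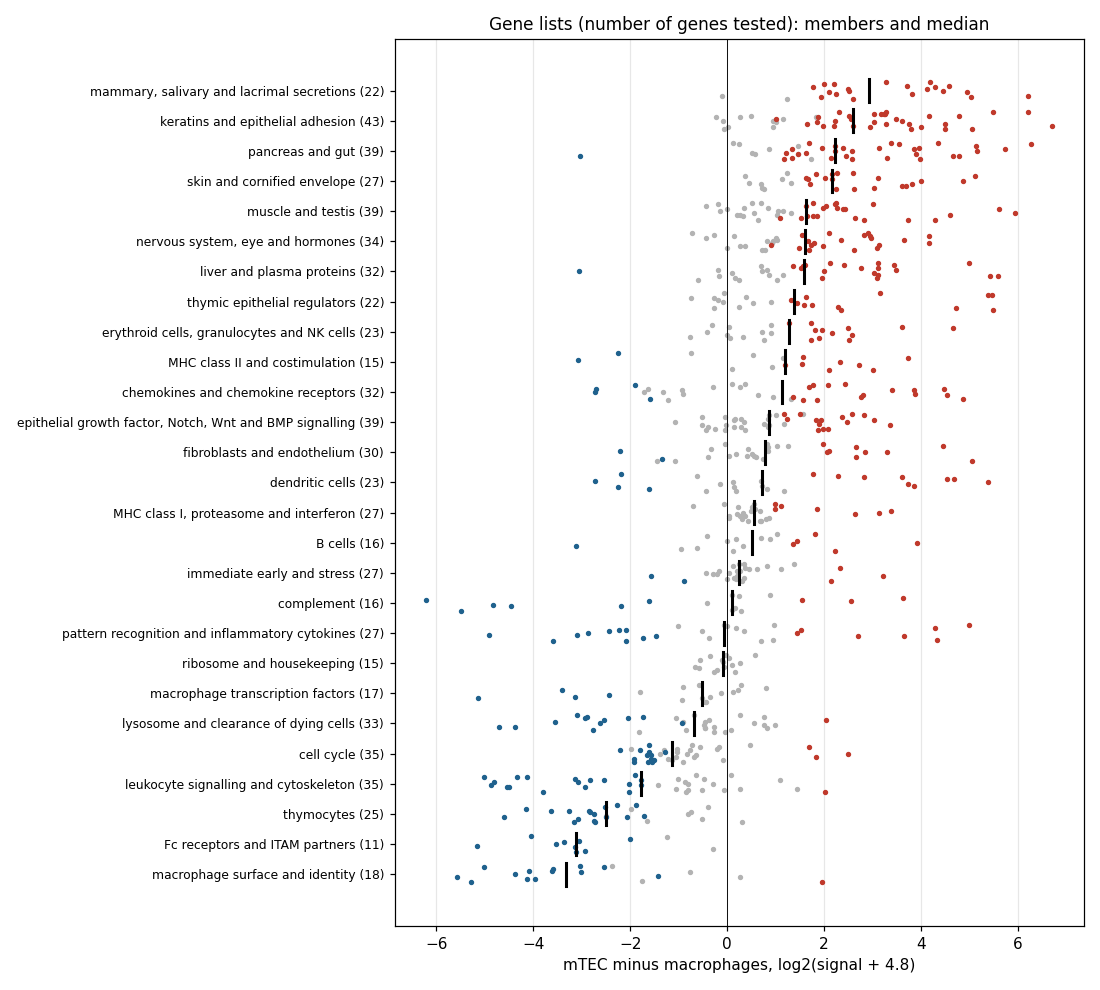
Difference in log2(signal + 4.8) between mTEC and macrophages for each tested member of the gene lists other than the histamine list, with 1 point per gene, red where called higher in mTEC, blue where called higher in macrophages and grey where not called, and a short line at the median of each list. The medians run from 2.93 for mammary, salivary and lacrimal secretions to -3.32 for macrophage surface genes, against 0.01 for all genes.

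Casein and kallikrein genes led the glandular list. The caseins Csn1s1 and Csn1s2a gave 76.9 and 164 in mTEC against 1.1 and 2.3 in macrophages (4.18 ± 0.39, adjusted p = 3.48e-06) and 70 and 119 against 0.9 and 0.6 (4.12 ± 0.38, adjusted p = 3.55e-06). The 9 tissue kallikreins tested, proteases of salivary gland, were all called higher in mTEC. Of these, 8 rest on probe sets with a suffix of shared probes or, as for Klk1b8 (_i_at), of another kind. Klk1b11, the one that does not, gave 83.7 and 55.3 against 0.9 and 0.6 (3.72 ± 0.37, adjusted p = 6.62e-06). Mucl2, a salivary mucin, gave 138 and 138 against 1.5 and 0.9 (4.57 ± 0.54, adjusted p = 2.94e-05). These 4 genes lay below the constant of 4.8 on both macrophage arrays. Lcn2 (-0.10) and the amylase Amy1 (1.23) were the 2 members that did not pass on the probe set used. Another probe set of Lcn2 was higher in mTEC, with 48.2 and 32 against 5.1 and 5.4 (2.14, adjusted p = 0.000313).

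The pancreas and gut list held hormones, lectins and transporters. Ins2, insulin, gave 143 and 229 in mTEC and 0.3 and 0.5 in macrophages (5.16 ± 0.50, adjusted p = 5.32e-06), on a probe set with shared probes. Chgb, a protein of secretory granules, gave 468 and 212 against 6.7 and 2.5 (5.13 ± 0.42, adjusted p = 1.87e-06), also with shared probes. Vil1, villin of the brush border, gave 180.2 and 180.2 against 3.6 and 0.6 (4.78 ± 0.36, adjusted p = 1.25e-06). Cck, the hormone cholecystokinin, gave 71.6 and 89.4 against 1.3 and 0.6 (3.89 ± 0.32, adjusted p = 1.9e-06). All 4 stood clear of macrophages, and Cck alone among them did not pass against cTEC (0.52 ± 0.32, adjusted p = 0.362), where it gave 59.9 and 49. Cela1, an elastase of the pancreas by name, was the member higher in macrophages, with 50.3 and 30.8 against 313 and 414 (-3.04 ± 0.42, adjusted p = 0.000114) and 30.4 and 19.8 in dendritic cells (3.63 ± 0.42, adjusted p = 7.54e-05).

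Plasma protein genes were as varied. Saa3, an acute phase amyloid, gave 1434 and 1789 in mTEC and 65.5 and 10.9 in macrophages (5.60 ± 0.77, adjusted p = 0.000105). Apoa4 and Apoa1, apolipoproteins of gut and liver, gave 709.8 and 553 against 14.9 and 6.1 (5.43 ± 0.55, adjusted p = 7.95e-06) and 237 and 238 against 2.7 and 2.9 (4.99 ± 0.38, adjusted p = 1.36e-06). Alb, albumin, gave 72.9 and 56.6 against 9.1 and 2.6 (2.77 ± 0.37, adjusted p = 9.3e-05). The groups did not overlap on these 4. Apoc1, an apolipoprotein of liver and macrophages, went the other way, with 15.1 and 22.2 against 158 and 225 (-3.06 ± 0.40, adjusted p = 7.32e-05). In dendritic cells it gave 1.6 and 1.1 (4.98 ± 0.40, adjusted p = 5.57e-06). The arginase Arg1 gave 55.5 and 59.7 against 23.6 and 47.1 (0.70 ± 0.34, adjusted p = 0.176).

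The skin list holds genes of the cornified envelope, and not all of them passed. Sprr1b gave 0.46, adjusted p = 0.337, on its brightest probe set and 5.52, adjusted p = 6.6e-06, on another. Sprr1a, a small proline-rich protein of the envelope, gave 1165 and 1515 in mTEC and 49.5 and 22.1 in macrophages (5.12 ± 0.39, adjusted p = 1.23e-06). Krt10, a keratin of the upper epidermis, gave 1022 and 620.0 against 73.4 and 26.7 (4.01 ± 0.54, adjusted p = 8.76e-05). S100a8 gave 327 and 569.8 against 35.7 and 26.3 (3.62 ± 0.51, adjusted p = 0.000125). Both mTEC arrays lay above both macrophage arrays on these. Of neural and hormone genes, Gad1, which makes the transmitter GABA, gave 116 and 204 against 1.0 and 8.6 (4.17 ± 0.62, adjusted p = 0.000209). Tac2, a tachykinin, gave 124 and 129.7 against 3.2 and 1.9 (4.17 ± 0.49, adjusted p = 2.72e-05). Pth, parathyroid hormone, gave 111 and 82.1 against 0.6 and 7.1 (3.65 ± 0.49, adjusted p = 9.1e-05). Of muscle genes, Actn3, the actinin of fast fibres, gave 298 and 311 against 14.1 and 3.8 (4.60 ± 0.42, adjusted p = 3.39e-06). Tnnt2, the cardiac troponin T, gave 289 and 153 against 9.2 and 3.8 (4.29 ± 0.44, adjusted p = 8.18e-06). Myod1, the muscle-determining factor, gave 32.5 and 43.5 against 43.5 and 23.3 (0.20 ± 0.35, adjusted p = 0.778) and did not pass.

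Histamine, tuft and mast cell genes were listed because of the Hdc signal on these arrays, so no count over them is given. Avil, advillin of tuft cells, gave 571 and 316 in mTEC and 36.3 and 19.8 in macrophages (3.76 ± 0.48, adjusted p = 5.79e-05). Il13, a cytokine of type 2 immunity, gave 172 and 199 against 5.0 and 4.6 (4.30 ± 0.45, adjusted p = 1.04e-05). Kit, the stem cell factor receptor, gave 107 and 201 against 19.5 and 12.1 (2.90 ± 0.35, adjusted p = 3.48e-05). Maoa, a monoamine oxidase, gave 279 and 166 against 72.5 and 38.3 (1.93 ± 0.34, adjusted p = 0.000874). These 4 did not overlap. The factors that define tuft and mast cells did not pass, with Pou2f3 at 44.6 and 56.5 against 32.9 and 31.1 (0.58 ± 0.32, adjusted p = 0.239) and Gata2 at 59.4 and 59.4 against 31.3 and 29 (0.88 ± 0.32, adjusted p = 0.0651). Of the mast cell proteases, Mcpt2 (2.94) and Mcpt1 (2.55, adjusted p = 0.00129) were higher in mTEC. Cma1 (-0.65, adjusted p = 0.441) and Tpsb2 (0.83, adjusted p = 0.443) did not pass.

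Thymocyte genes were higher in macrophages for 17 of 25 tested, against 7.87% of all genes, with a median of -2.50. The other 8 did not pass. Cd8b1, the beta chain of CD8, gave 46.3 and 55.2 in mTEC and 2405 and 741 in macrophages (-4.60 ± 0.57, adjusted p = 4.61e-05), on a probe set with shared probes. Rag1, which recombines antigen receptor genes, gave 14.7 and 25.7 against 568 and 316 (-4.14 ± 0.77, adjusted p = 0.00116), while its second probe set did not pass (-0.90, adjusted p = 0.404). Thy1 gave 36.1 and 69.5 against 1160.1 and 396 (-3.63 ± 0.71, adjusted p = 0.00184). Cd4, which some macrophages also carry, gave 28.8 and 16.9 against 167 and 187 (-2.75 ± 0.35, adjusted p = 5.51e-05). The macrophage arrays lay above the mTEC arrays on all 4, and array 1 was the higher of the 2 except for Cd4. Cd6 gave 703 and 36.2 on the macrophage arrays and did not pass (-2.50 ± 0.91, adjusted p = 0.0651), but did without array 2 (-4.56, adjusted p = 0.000127). Its other probe set was higher in macrophages (-3.42, adjusted p = 0.0114). The count of 17 was 11 without macrophage array 1 and 10 without mTEC array 1. Of the 25, 9 were below the filter level on both mTEC arrays and 0 on both macrophage arrays. Against cTEC 17 were lower in mTEC as well, against 4.59% of all genes, with a median of -2.57. In cTEC Rag1 gave 405 and 903. The part of thymocytes in the macrophage profile was not tested.

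Cell cycle genes followed the same arrays. Of 35 tested, 13 were higher in macrophages, against 7.87% of all genes, with a median of -1.13. The 3 higher in mTEC were no larger a share than the 15.6% of all genes. Top2a, a topoisomerase of dividing cells, gave 37.2 and 71.2 in mTEC and 308 and 213 in macrophages (-2.21 ± 0.45, adjusted p = 0.00228). Ccnb2, a cyclin of mitosis, gave 132 and 192 against 822 and 471 (-1.93 ± 0.39, adjusted p = 0.00206). Tk1, thymidine kinase, gave 78.8 and 45 against 295 and 195 (-1.92 ± 0.35, adjusted p = 0.00112), while its second probe set did not pass (-0.73, adjusted p = 0.451). Macrophage array 1 was the highest of the 4 arrays on these 3. The count of 13 was 4 without macrophage array 1, 6 without mTEC array 1, 8 without mTEC array 2 and 13 without macrophage array 2. Mki67 gave 107 and 165 against 409 and 244 (-1.22 ± 0.45, adjusted p = 0.0661) and did not pass. Ccnd2, a cyclin of the start of the cycle, was higher in mTEC, with 128 and 122 against 14.4 and 23 (2.49 ± 0.37, adjusted p = 0.0002). Whether the cell cycle signal came with the thymocyte signal of these arrays was not tested.

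Markers of other blood cells were called in both directions. Of 16 B cell genes, 5 were higher in mTEC and 1 in macrophages, against 15.6% and 7.87% of all genes, with a median of 0.51. The count of 5 was 2 without mTEC array 1, 3 without mTEC array 2, 3 without macrophage array 1 and 2 without macrophage array 2. Fcer2a, the low-affinity IgE receptor, gave 184 and 127 in mTEC and 3.8 and 8.0 in macrophages (3.91 ± 0.42, adjusted p = 1.21e-05). The defining genes Cd79a, with 5.2 and 30.6 against 28.3 and 20.5 (-0.62 ± 0.70, adjusted p = 0.624), and Ms4a1, with 44 and 40.9 against 28.5 and 46.8 (0.19 ± 0.41, adjusted p = 0.829), did not pass on the probe sets used. Another probe set of Ms4a1 was higher in mTEC (1.91, adjusted p = 0.0272). Cd22, an inhibitory receptor named for B cells, was higher in macrophages (23.9 and 31 against 204 and 359.8, -3.11 ± 0.42, adjusted p = 9.35e-05). Of 23 erythroid, granulocyte and NK genes, 12 were higher in mTEC, with a median of 1.27, and 7 without mTEC array 1. The share of all genes higher in mTEC was 15.6%. Ly6g, a neutrophil marker, gave 241 and 190.0 against 5.4 and 2.5 (4.66 ± 0.54, adjusted p = 2.23e-05). Camp, a neutrophil peptide, gave 312 and 307 against 59.5 and 43 (2.50 ± 0.41, adjusted p = 0.000439). The neutrophil elastase gene Elane gave 14.6 and 28.6 against 26.5 and 16.3 (-0.01 ± 0.38, adjusted p = 0.99).

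Of 30 fibroblast and endothelial genes, 9 were higher in mTEC and 2 in macrophages, against 15.6% and 7.87% of all genes, with a median of 0.78. The 2 were near the background share. Acta2, smooth muscle actin, gave 312 and 309.6 in mTEC and 11.5 and 0.7 in macrophages (5.06 ± 0.40, adjusted p = 1.5e-06). Col5a2, a fibrillar collagen, gave 243 and 347 against 12 and 6.1 (4.45 ± 0.41, adjusted p = 3.39e-06). Vwf, von Willebrand factor of endothelium, gave 198 and 135 against 12.9 and 11.8 (3.30 ± 0.56, adjusted p = 0.00059). These 3 did not overlap. Dcn, decorin of fibroblasts (2.66), Mgp, a matrix protein (2.06, with shared probes), and Tek, an endothelial receptor (2.66), were also higher in mTEC. Other defining genes did not pass, with Col1a1 at 39.3 and 63.8 against 32.7 and 40.1 (0.42 ± 0.48, adjusted p = 0.628) and Pecam1 at 38.8 and 44.8 against 43.1 and 29.7 (0.19 ± 0.39, adjusted p = 0.814). The 2 higher in macrophages were Icam2 (-2.22) and Pdgfra (-1.34). Icam2 gave 134 and 18.5 on the macrophage arrays, and its call was lost without macrophage array 1 (-0.94, adjusted p = 0.408) or mTEC array 1 (-1.45, adjusted p = 0.316). Without macrophage array 2 it was -3.51, adjusted p = 0.0026. Pdgfra had a second probe set that did not pass (0.81, adjusted p = 0.264), and it lost its call without any 1 of the 4 arrays (differences from -1.54 to -1.13 and adjusted p from 0.0609 to 0.196).

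The genes meant as a reference for all cells gave no call. None of the 15 ribosome and housekeeping genes passed the limma test, 0 of them had an unadjusted p under 0.05, and their median was -0.09. Rps3, a ribosomal protein, gave 1988 and 2481 in mTEC and 1875 and 2501 in macrophages (0.04 ± 0.31, adjusted p = 0.961). Ldha, lactate dehydrogenase, gave 2102 and 1924 against 1909 and 2172 (-0.02 ± 0.26, adjusted p = 0.979). Of 27 immediate early and stress genes, 3 were higher in mTEC and 2 in macrophages, with a median of 0.24. These counts were no larger than the 15.6% and 7.87% of all genes. Fos, induced within minutes of a stimulus or of handling, gave 1663 and 2483 against 1658 and 2367 (0.04 ± 0.31, adjusted p = 0.961). Hspa1a, a heat shock protein, gave 1649 and 4622 against 1568 and 3675 (0.20 ± 0.59, adjusted p = 0.872). The groups overlapped on both. The 3 higher in mTEC were the growth arrest genes Gadd45a (2.14) and Gadd45g (3.21) and the Fos relative Fosl1 (2.34). Their count was 5 without macrophage array 1 and 6 with the array number as a block. The Gadd45g call was lost without mTEC array 1 (2.80, adjusted p = 0.0561) or macrophage array 2 (1.98, adjusted p = 0.0676). Nr4a1 gave 141 and 187 against 839 and 283 (-1.56 ± 0.48, adjusted p = 0.0308), and its call was lost without macrophage array 1 (-0.78, adjusted p = 0.304), mTEC array 1 (-1.36, adjusted p = 0.17) or mTEC array 2 (-1.76, adjusted p = 0.0732). Klf2, a factor of resting lymphocytes, was the other (-0.88), and its call was lost without any 1 of the 4 arrays (differences from -1.0 to -0.75 and adjusted p from 0.0972 to 0.222).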

How the data were processed

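Total RNA of sorted mouse thymus cells was measured on 16 arrays in 8 groups of 2, grouped by sample titles and descriptions. The authors deposited 1 linear intensity value per probe set and array (12488 probe sets). The 2%-trimmed means of 100.06 to 100.07 show that arrays had been brought to 1 scale, and the software is not given in the sources used here. No background or detection columns were used, and no further normalization was applied.

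Differences were taken on log2(signal + 4.8), where 4.8 is the signal's 20th percentile. Controls (66 probe sets) were removed, and so were 3103 dim probe sets, those with fewer than 2 arrays above the 40th percentile of 17.3. Symbols came from the platform annotation (10833 probe sets with 1 symbol, 396 with several, 1193 unnamed here), updated for 10817 through the GRCm38.p6 gene table and kept for 16. All 16 arrays entered 1 model in limma 3.58.1 under R 4.3.3 (lmFit, then eBayes with an intensity trend). It had 8 residual degrees of freedom and gained 5.97 from the prior. Tests were 2-sided, with Benjamini-Hochberg adjustment at 0.05 over 9319 probe sets. Other steps used Python 3.11.15, numpy 2.4.6 and pandas 2.3.3. The steps were tested on simulated data.

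The 28 gene lists held 1039 members, 820 on the array and 713 tested. The comparison and the lists were chosen with earlier results of these data known. Named genes were the 12 called genes with the largest difference in each direction, Hdc, C1qa and members of the lists. The alias Si of Pmel was left out after the data were seen. Of the named genes, 140 had more than 1 tested probe set, and 0 of these were called in both directions.

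Alternatives were quantile normalization, constants of 1 and 17.3, no filter and a filter of 50, no trend, only the groups compared, only the 8 unfractionated arrays, the array number as a block, the mean over probe sets and each array left out. Numbers pair the unfractionated arrays. Deviations of same-numbered arrays from their group means correlated at 0.279 to 0.526 in all 6 pairs of groups, so the fit with the number as a block is given where it changes a count by over 1.5 times.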

Additional observations from a re-analysis of the deposited data

How the results depend on the processing

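The count of 1361 probe sets higher in mTEC stayed within 1.5 times under every alternative run (969 to 1622), and the 687 higher in macrophages did not. That count was 383 with only the groups compared, 1075 with the replicate block and 402 to 617 with 1 array left out. Of macrophages against dendritic cells, the 524 higher in macrophages were 311 with the 8 unfractionated arrays, 104 with only the groups compared and 817 with the block. The 338 higher in dendritic cells were 211, 76 and 565 under the same settings and 213 to 351 with 1 array left out. Of mTEC against cTEC, the 396 higher in cTEC were 228 with the 8 unfractionated arrays, 729 with the block and 166 to 200 with 1 array left out. The fits with fewer arrays have fewer degrees of freedom. The cause of the other shifts was not tested.

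Over 719 named genes, the block brought 37 past the threshold and lost 0. The fit with only the 4 arrays lost 74 and gained 5, quantile normalization lost 21 and gained 12, and leaving out 1 array lost 61 to 85 and gained 2 to 33. Of these genes only Apoe, which did not pass with all arrays, changed sign with a call, from 0.27 to -1.71 without macrophage array 1, and it reached 2.25, also called, without array 2. With the mean over probe sets, 61 of 140 genes moved by at least the fit's standard error of their difference. Signals near 4.8 have no firm order, so differences of genes dim in 1 cell type are compressed.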
